A study of Mus musculus with 1 sample.

Results

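The expression of 9 complement genes was followed across the cells of subcutaneous MC38 tumors. The genes were C1qa, C1qb, C1qc, C2, C3, C4b, Cfb, Serping1 and C3ar1, components, a regulator and a receptor of the cascade, and all 9 were present among the 32285 genes of the table. MC38 is a murine colon adenocarcinoma line, and the tumors had grown in female C57BL/6J mice that were bought at a few weeks of age. The study's methods describe an even pool of cells from 5 control tumors, made with shNTC cells, and run on the 10x Genomics Chromium platform. The reagents, 3' (v3.1), are not named in those methods. The label of the 1 library used here gives the genotype as WT and names no shRNA, and that it is this control pool was assumed. The pool of Atp6v0a1 knockdown tumors was not analysed here. The cells carry no mark of the tumor they came from, so there were no replicates, no test between groups was possible, and every interval below covers counting error only.

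Complement is a cascade of plasma proteins that marks targets for uptake or lysis. The classical pathway starts when C1q, a hexamer built from the products of C1qa, C1qb and C1qc, binds a target and its partner proteases cut C4 and C2. The alternative pathway amplifies C3 cleavage through factor B, the product of Cfb. Serping1 encodes C1 inhibitor, which blocks the C1 proteases, and C3ar1 encodes the receptor of the C3 fragment C3a. The liver makes most circulating components, whereas tissue macrophages are the best known source of C1q, and fibroblasts can make several of the others.

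The 5307 called cells held between 511 and 231902 UMIs, that is, distinct captured transcripts, with a median of 9248. After removal of 667 cells with more than 20% mitochondrial UMIs and 172 likely doublets, 4468 cells remained, and 3726 of them were named from marker lists. Levels are the UMIs of a gene per 1000000 UMIs of a group of cells (CPM), with an exact Poisson 95% interval. The 3' counts were not divided by transcript length, and levels are therefore compared between groups for 1 gene and not between genes.

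The named groups were 1469 macrophage-like, 256 monocyte-like, 40 DC-like, 169 T and NK-like, 1674 tumor-like, 27 fibroblast-like, 75 pericyte-like and 16 endothelial-like cells. The macrophage-like cells were split into 635 interferon macrophage-like cells (Cxcl9 1907 CPM, against 420 in Arg1 cells), 585 Arg1 macrophage-like cells (Arg1 1861 CPM, against 171 in interferon cells), 225 cycling macrophage-like cells and 24 others, led by Retnla, Cbr2, Ccl6, Folr2 and Lyve1. Tumor-like cells were named from Rhox5 (694 CPM, against 42.4 in macrophage-like cells) and Shisal2b (217 against 16.2 CPM), with little of the leukocyte gene Ptprc (1.91 CPM). They comprised 382 Col3a1-high cells (Col3a1 2868 CPM) and 1292 Col3a1-low cells (813 CPM), the latter with 712 cycling and 580 non-cycling cells. The label calls the cells epithelial, yet the tumor-like cells held 1 UMI of Epcam, 7 UMIs of Krt8 and 0 UMIs of Krt18. Pericyte-like cells had 6142 CPM of the summed pericyte list (389 CPM in fibroblast-like cells). They also had 7048 CPM of the summed fibroblast list (28895 CPM in fibroblast-like cells). All levels given for them are therefore those of a group with markers of both lists. Complement genes were neither markers nor among the variable genes used for clustering. The median depth was 8869 UMIs per macrophage-like cell, 41659 per tumor-like cell, 4068 per T and NK-like cell, 9049 per fibroblast-like cell and 736 per pericyte-like cell, and differed between the groups compared below.

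All 9 genes lie on the minus strand in GRCm38 (GENCODE M21). C1qb (136880129 to 136886187), C1qc (136889804 to 136893065) and C1qa (136895917 to 136898803) stand side by side on chromosome 4 within 18675 bases. C4b (34728380 to 34743882), Cfb (34856374 to 34862518) and C2 (34862604 to 34898265) share a stretch of 169886 bases on chromosome 17. C3 lies elsewhere on chromosome 17 (57203970 to 57228136), Serping1 on chromosome 2 (84765387 to 84775444) and C3ar1 on chromosome 6 (122847138 to 122856161). C4b has a close paralog, C4a, next to it, to which 7 UMIs were assigned in the kept cells, and reads of the pair could have been split or lost in counting.

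The neighbours C1qb and C1qc were seen together in 1335 of the 1422 macrophage-like cells with a UMI of either, whereas C3 was highest in stromal cells, and the promoters of these 3 genes are given for that contrast. They run from 250 bases before to 50 bases after the RefSeq start (GRCm38.p6, minus strand), at chr4:136886151-136886450 for C1qb, chr4:136892865-136893164 for C1qc and chr17:57228087-57228386 for C3. Capitals mark matches, on either strand, to GAGGAA (a PU.1 core), TGCTGA (a MAF half-site) or TTGCNNAA (a C/EBP motif).
C1qb: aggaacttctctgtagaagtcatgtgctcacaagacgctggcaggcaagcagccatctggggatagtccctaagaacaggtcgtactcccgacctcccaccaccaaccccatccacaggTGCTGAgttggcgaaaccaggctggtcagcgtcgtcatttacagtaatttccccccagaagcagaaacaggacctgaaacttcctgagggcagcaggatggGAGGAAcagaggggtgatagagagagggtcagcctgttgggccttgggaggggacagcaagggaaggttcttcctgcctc
C1qc: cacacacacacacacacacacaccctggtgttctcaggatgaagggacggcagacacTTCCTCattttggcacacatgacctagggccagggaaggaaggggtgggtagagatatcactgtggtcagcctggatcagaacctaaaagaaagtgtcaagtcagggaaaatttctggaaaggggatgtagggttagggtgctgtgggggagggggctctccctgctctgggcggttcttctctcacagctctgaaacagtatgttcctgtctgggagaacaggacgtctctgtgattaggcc
C3: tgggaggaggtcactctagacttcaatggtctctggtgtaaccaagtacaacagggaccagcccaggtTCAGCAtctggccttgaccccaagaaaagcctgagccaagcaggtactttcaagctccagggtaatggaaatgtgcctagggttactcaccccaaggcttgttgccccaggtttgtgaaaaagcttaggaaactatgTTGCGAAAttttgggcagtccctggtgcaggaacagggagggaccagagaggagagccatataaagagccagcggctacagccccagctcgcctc
RefSeq promoters were at hand for 4 of the 9 members, the fourth being C3ar1. GAGGAA was found in C1qb, 30 bases before the start (-30), and in C1qc (-193), and in 28.28% of all 32851 promoters of this length. TGCTGA occurred in C1qb (-131), C3 (-182) and C3ar1 (-144), and in 19.48% of all promoters. TTGCNNAA occurred in C3 alone of the 4 (-45), and in 10.8% of all promoters. Neither GAAANNGAA, a pair of IRF half-sites (8.56% of all promoters), nor TTCNNNGAA, a GAS element (8.298%), was in any of the 4 windows.

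The 3 C1q genes marked the macrophage-like cells. C1qa stood at 8549 CPM (8466 to 8632) in interferon, 7372 CPM (7304 to 7441) in Arg1, 6787 CPM (6695 to 6880) in cycling and 7022 CPM (6607 to 7457) in other macrophage-like cells. Monocyte-like cells had 3929 CPM (3833 to 4026), DC-like cells 258 CPM and T and NK-like cells 109 CPM. In Col3a1-high tumor-like cells C1qa was at 44.3 CPM, in cycling Col3a1-low tumor-like cells at 28.5 CPM and in non-cycling ones at 27.6 CPM. Fibroblast-like cells had 45.8 CPM and endothelial-like cells 135 CPM from 11 UMIs. Among pericyte-like cells the level of C1qa was 338 CPM, but 1 cell held 65 of the 85 UMIs, and without it the level was 116 CPM. Thus all 4 macrophage-like groups lay above the monocyte-like cells, and these lay well above every other group.

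C1qb and C1qc followed C1qa. C1qb was at 7407, 6567, 6580 and 4583 CPM in interferon, Arg1, cycling and other macrophage-like cells, and at 4566 CPM in monocyte-like cells. C1qc was at 5089, 4282, 4257 and 3673 CPM in the same macrophage-like groups and at 2396 CPM in monocyte-like cells. The 24 other macrophage-like cells and the monocyte-like cells therefore had about the same C1qb level. C1qa made up between 38.5% and 46.0% of the C1q UMIs in the macrophage-like groups and 36.1% in monocyte-like cells, where C1qb held the largest share (41.9%).

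**Figure D1:**
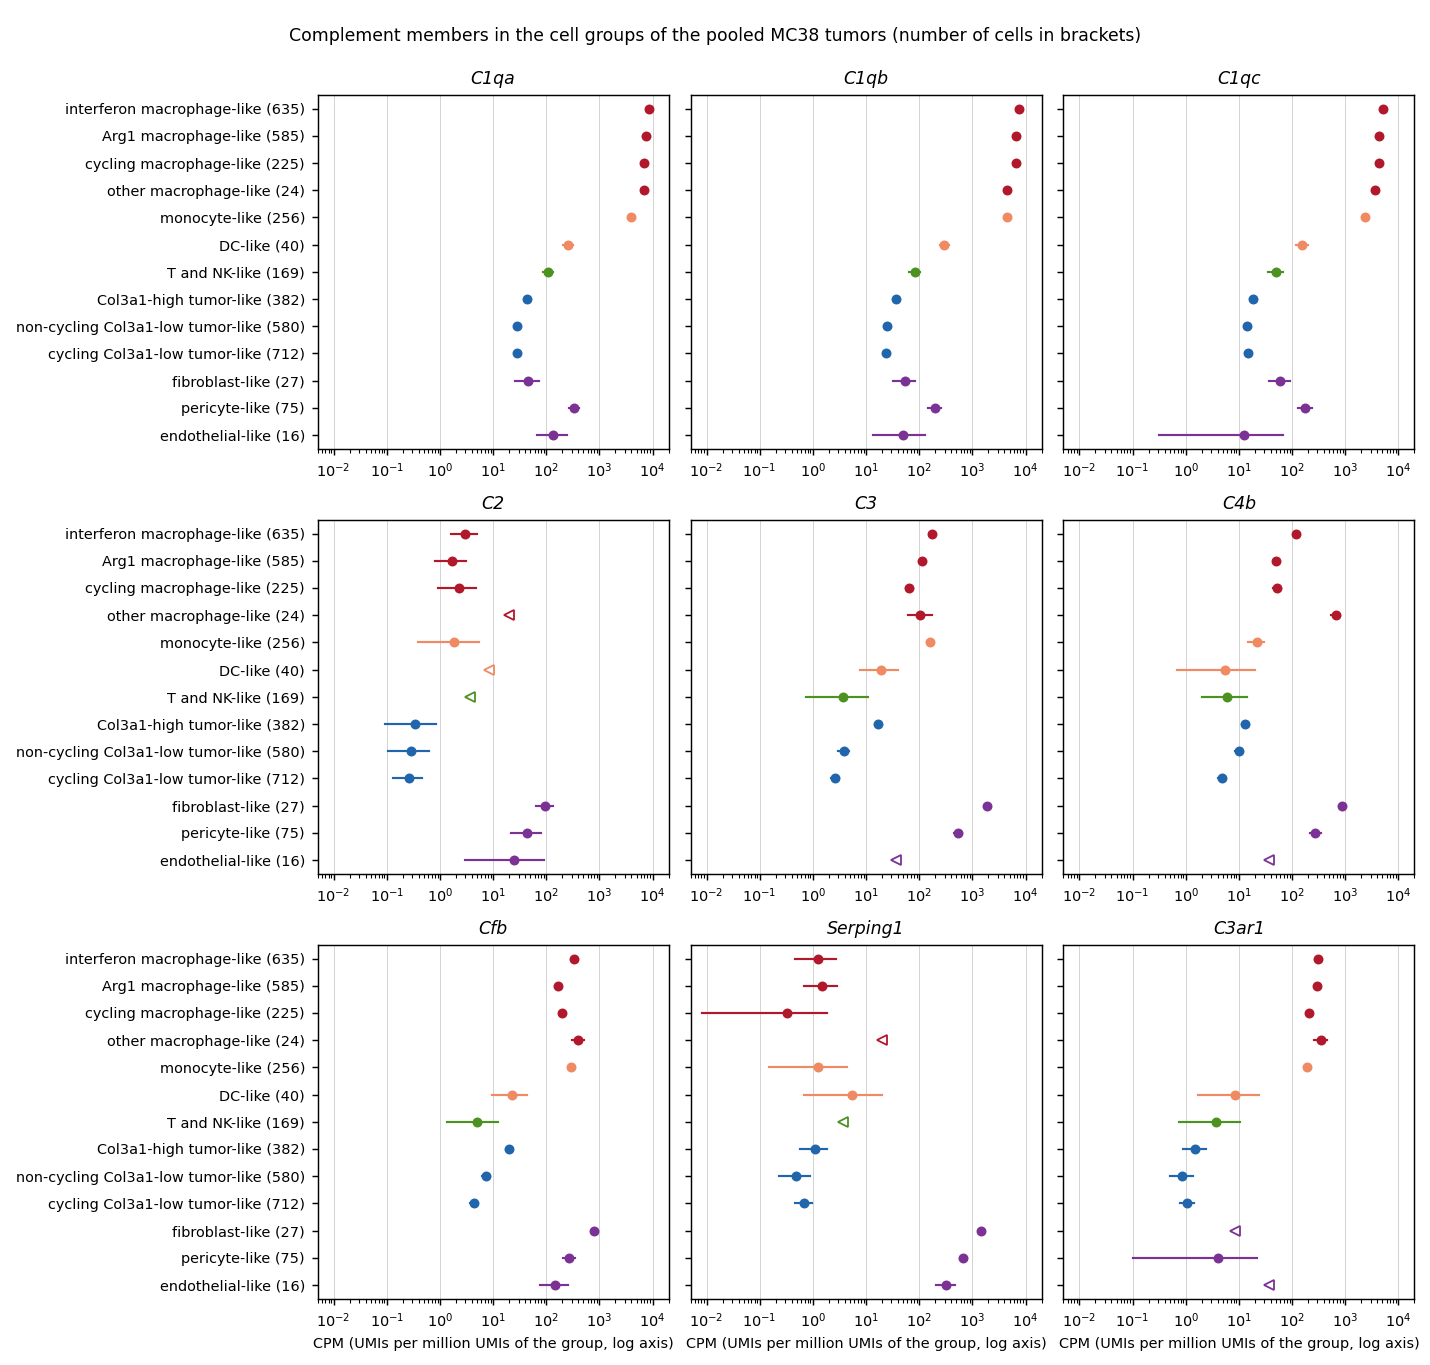
Level of each of the 9 genes (CPM, log axis) in the 13 named cell groups, with the number of cells in brackets. Points are sums over the cells of a group, lines are exact Poisson 95% intervals, and open triangles mark groups with 0 UMIs at the level that 3 counts would give. C1qa, C1qb, C1qc and C3ar1 are highest in macrophage-like groups, and C2, C3, C4b, Cfb and Serping1 in fibroblast-like cells.

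The sum of the 3 genes was 19022 CPM in all macrophage-like cells and 10891 CPM in monocyte-like cells, a ratio of 1.75 (1.72 to 1.77, exact conditional binomial interval). Monocyte-like cells had 3490 CPM of the summed monocyte list, against 141 to 442 CPM in the macrophage-like groups. They also had 17685 CPM of the summed macrophage list, within the 16753.5 to 34950 CPM of those groups. Every comparison with them is therefore with a mixed group. The ratio stayed above 1 in all 13 alternatives that could be computed, between 1.02 and 3.03, and was 1.02 at a lower clustering resolution that named 909 cells monocyte-like. With at least 500 genes per cell it was 1.25. The 24 cells then named monocyte-like held as many C1q UMIs (2317) as the other macrophage-like cells, so that value says little about monocytes. Between the macrophage states the differences were small. Interferon exceeded Arg1 macrophage-like cells 1.15-fold (1.15 to 1.16), but the order turned when the C1q UMIs were taken per cell (158.6 against 188.3, a ratio of 0.842), when no mitochondrial limit was set (0.941) and, barely, when the levels of single cells were averaged (0.9999). The order of these states depended on the setting.

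Cell by cell, the macrophage states overlapped almost fully and the monocyte-like cells spread widely. The median C1q level was 19002 CPM in interferon, 17909 CPM in Arg1 and 17152 CPM in cycling macrophage-like cells, with quartiles between 10278 and 24077 CPM in these 3 groups. The monocyte-like cells had a median of 5799 CPM, with quartiles of 328 and 14307 CPM, and their lowest 5% had 0 UMIs. The highest of the monocyte-like cells, those above the upper quartile, thus reached the range of the macrophage-like cells.

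**Figure D2:**
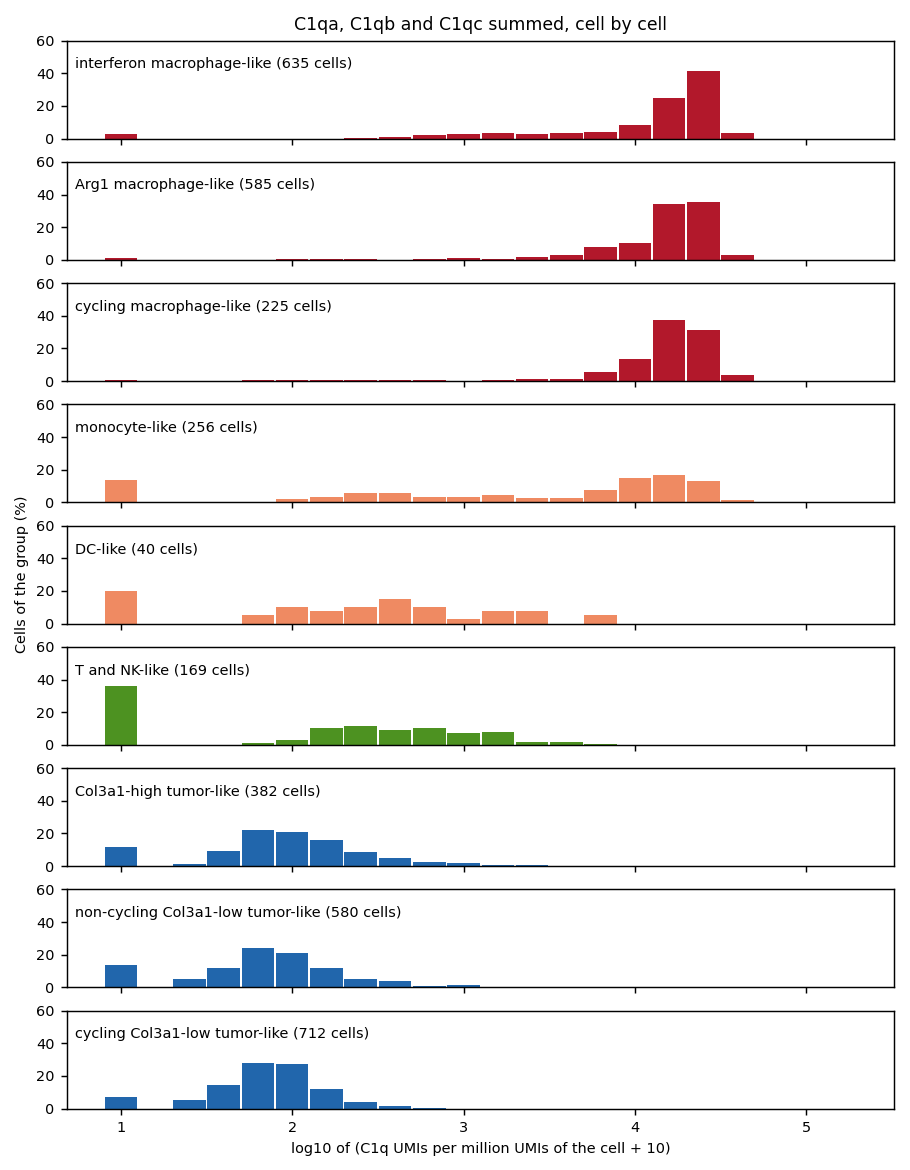
Distribution over cells of the summed C1q level, as log10 of CPM plus 10 (horizontal axis), with the share of the cells of each group in percent (vertical axis). The macrophage-like groups peak near their medians of 17152 to 19002 CPM, monocyte-like cells spread from 0 to the same range, and T and NK-like and tumor-like cells lie far lower.

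A UMI of any C1q gene was seen in 98.4% of macrophage-like cells (97.7% to 99.0%, Clopper-Pearson) and 86.3% of monocyte-like cells (81.5% to 90.3%). It was also seen in 63.9% of T and NK-like cells (56.2% to 71.1%), which should lack these genes, and in 89.6% of the far deeper tumor-like cells (88.0% to 91.0%). With each cell thinned to 1000 UMIs, and shallower cells left out, the shares were 96.8% (17 cells left out), 71.0% (1 left out), 25.4% (31 left out) and 11.1% (2 left out). The share in tumor-like cells was then below that in T and NK-like cells. Before thinning these groups differed in depth, with medians of 41659 and 4068 UMIs. The source of the C1q UMIs in both groups, and whether tumor-like cells express these genes, was not tested. After thinning, 12 of the 40 DC-like cells had a C1q UMI (16.6% to 46.5%), a share that could not be told apart from that of T and NK-like cells (18.3% to 33.5%).

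Within macrophage-like cells the 3 genes were detected together. Of 1469 cells, 1376 had UMIs of both C1qa and C1qb, out of 1437 with either. Across these cells Pearson's r between log levels was 0.81 for C1qa and C1qb and 0.85 for C1qa and C1qc. It was lower with C3ar1 (0.33), Cfb (0.29), C3 (0.20) and C4b (0.12). The cells share 1 library, and the sparser genes carry more counting noise, so these values describe the cells only.

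C2, the protease of the C3 convertase, was rare in blood-derived and tumor cells. Interferon macrophage-like cells held 14 UMIs (2.93 CPM, 1.60 to 4.91), Arg1 macrophage-like cells 10 UMIs (1.65 CPM), cycling macrophage-like cells 7 UMIs (2.29 CPM) and monocyte-like cells 3 UMIs (1.85 CPM). T and NK-like cells had 0 UMIs, which allows up to 3.66 CPM, as did DC-like cells (up to 8.31 CPM) and the 24 other macrophage-like cells (up to 19.8 CPM). The 3 tumor-like groups had 0.336, 0.285 and 0.259 CPM from 21 UMIs in all. In contrast, the 27 fibroblast-like cells held 33 UMIs of C2 (94.4 CPM, 65.0 to 133), seen in 15 cells, and pericyte-like cells 11 UMIs (43.7 CPM). C2 was thus highest in the stromal groups, and macrophage-like cells exceeded tumor-like cells 7.94-fold (4.42 to 14.5). Per cell, without regard to depth, this ratio was 1.68.

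C4b, the mouse C4 of the classical pathway, was highest in fibroblast-like cells (853 CPM, 758 to 955, 298 UMIs), followed by the 24 other macrophage-like cells (659 CPM, 537 to 802, 100 UMIs). Pericyte-like cells had 274 CPM, with 40 of their 69 UMIs in 1 cell. Interferon macrophage-like cells stood at 118 CPM (109 to 128), cycling ones at 52.1 CPM (44.3 to 60.8), Arg1 ones at 50.4 CPM (44.9 to 56.4) and monocyte-like cells at 21.5 CPM (35 UMIs). The small group led by Retnla, Folr2 and Lyve1 was therefore set apart from the other macrophages by C4b, at 5.58 times the interferon level (4.46 to 6.91) and 13.1 times the Arg1 level (10.3 to 16.4). C4b was found in 15 of its 24 cells, and the cell with the most UMIs held 16 of the 100. The collagen genes Col3a1 (435 against 111 CPM) and Col1a2 (19.8 against 7.61 CPM, 3 and 46 UMIs) were also higher there than in Arg1 macrophage-like cells, and the summed fibroblast list was at 343 CPM with 3 of its 8 genes at 0, against 28895 CPM in fibroblast-like cells. The part of fibroblast RNA in this C4b level was not tested. The group named other macrophage-like held 512 cells with another seed and 927 at a resolution of 0.8. Its own levels were not recomputed under the alternatives, so they hold for this grouping of 24 cells.

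In tumor-like cells C4b was at 13.2 CPM (11.2 to 15.4) in Col3a1-high, 9.89 CPM (8.59 to 11.3) in non-cycling Col3a1-low and 4.73 CPM (4.10 to 5.43) in cycling Col3a1-low cells. T and NK-like cells had 6.10 CPM (1.98 to 14.2) from 5 UMIs. Fibroblast-like cells exceeded Col3a1-high tumor-like cells 64.7-fold (53.1 to 79.0), and 46.3-fold when pericyte-like cells were pooled with them. No cell was named fibroblast-like at 10% mitochondrial UMIs, without a mitochondrial limit, with at least 500 genes per cell or with more variable genes. This ratio had no value there, and all fibroblast-like levels given here depend on the grouping. It also had none with 20 and 10 principal components, where no cell was named Col3a1-high, so the Col3a1-high levels depend on the grouping too. The ratio of Col3a1-high to T and NK-like cells, per UMI and not per cell, was 2.16 (0.907 to 6.75), an interval that includes 1.

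C3, the component on which all pathways converge, also had its highest level in stromal cells, although the far more numerous macrophage-like cells held 1743 of its UMIs, against 788 in fibroblast- and pericyte-like and 259 in monocyte-like cells. It reached 1871 CPM (1730 to 2020, 654 UMIs) in fibroblast-like and 532 CPM (446 to 631, 134 UMIs) in pericyte-like cells. In both groups 1 cell held much of it, 159 of 654 and 67 of 134 UMIs, and without these cells the levels were 1561 and 389 CPM. Among myeloid cells C3 was at 175 CPM (164 to 188) in interferon macrophage-like, 159 CPM (141 to 180) in monocyte-like, 114 CPM (106 to 123) in Arg1, 106 CPM (60.3 to 171) in other and 65.2 CPM (56.4 to 74.9) in cycling macrophage-like cells. Monocyte-like cells therefore did not lie below the macrophage-like cells as they did for C1q. The ratio of all macrophage-like to monocyte-like cells was 0.779 (0.683 to 0.891). DC-like cells had 19.4 CPM and T and NK-like cells 3.66 CPM (0.755 to 10.7, 3 UMIs), and the 16 endothelial-like cells had 0 UMIs, which allows up to 36.9 CPM.

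Tumor-like cells differed in C3 by their Col3a1 level. Col3a1-high cells had 17.0 CPM (14.7 to 19.5, 202 UMIs) and Col3a1-low cells 3.02 CPM (2.61 to 3.48, 192 UMIs), a ratio of 5.62 (4.59 to 6.88). Per UMI, Col3a1-high cells exceeded T and NK-like cells 4.64-fold (1.56 to 22.7), whereas Col3a1-low cells did not (0.826, 0.278 to 4.04). Per cell, without regard to depth, Col3a1-low cells held more, with 192 UMIs in 1292 cells against 3 UMIs in 169. Their median depth was 47594.5 UMIs, against 4068 in T and NK-like cells. The C3 UMIs sat in few cells. Of the 382 Col3a1-high cells, 15 with at least 3 UMIs held 159 of the 202, and 1 cell held 51. Without the highest cell of each group the levels were 12.7 and 2.87 CPM and the ratio was 4.43. These 15 cells were chosen by their C3 count, so their values are a description. They had Rhox5 like the other Col3a1-high cells (613 against 660 CPM) and as little of the fibroblast gene Col1a2 (6.15 against 6.74 CPM), but more C1q (230 against 94.0 CPM), C4b (129 against 8.23 CPM) and Cfb (88.2 against 17.1 CPM). Among Col3a1-low cells the 12 cells with at least 3 UMIs of C3 had 300 CPM of Col1a2, against 16.3 CPM in the rest. They also had 487 CPM of Cxcl9, against 81.6 CPM in the rest. In the 15 Col3a1-high cells Cxcl9 was at 410 CPM, against 280 CPM in the other Col3a1-high cells. The median log2 ratio of Col3a1-high to Col3a1-low cells was 0.65 over the 9 members, the middle value being that of C1qa, and 0.17 over all genes. The share of genes at least 2 times higher in Col3a1-high cells was 9.51% of the 12792 genes with at least 20 UMIs. Of the 9 members 3 did so (C3, C4b and Cfb), and 0 were at least 2 times lower, against 4.92% of all genes. Without the highest cell of each group C4b had 11.3 against 6.17 CPM, a ratio of 1.83, and 2 members (C3 and Cfb) were left.

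The interferon-responsive gene list was higher in Col3a1-high cells as a sum. Only 1 of its 7 genes was there at least 2 times the pooled level of the other named groups, a pool that includes the macrophage-like cells. Against Col3a1-low cells alone, Cxcl9 of this list was higher. It stood at 287 CPM in the 380 Col3a1-high cells with under 3 UMIs of Serping1, and at 85.6 CPM in the 1291 such Col3a1-low cells. The other genes of the list were not compared singly between these tumor-like groups. The summed level of the 7 interferon macrophage markers was 2686 CPM in Col3a1-high and 1847 to 1862 CPM in the Col3a1-low groups, and that of the 8 macrophage markers 286 CPM against 204 to 220 CPM, with none at 0. C1q was 1.47 times higher in Col3a1-high cells (1.38 to 1.57), while Ptprc was at 2.02 CPM against 1.89 CPM. Their part in the C3, C4b and Cfb levels was not tested.

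**Figure D3:**
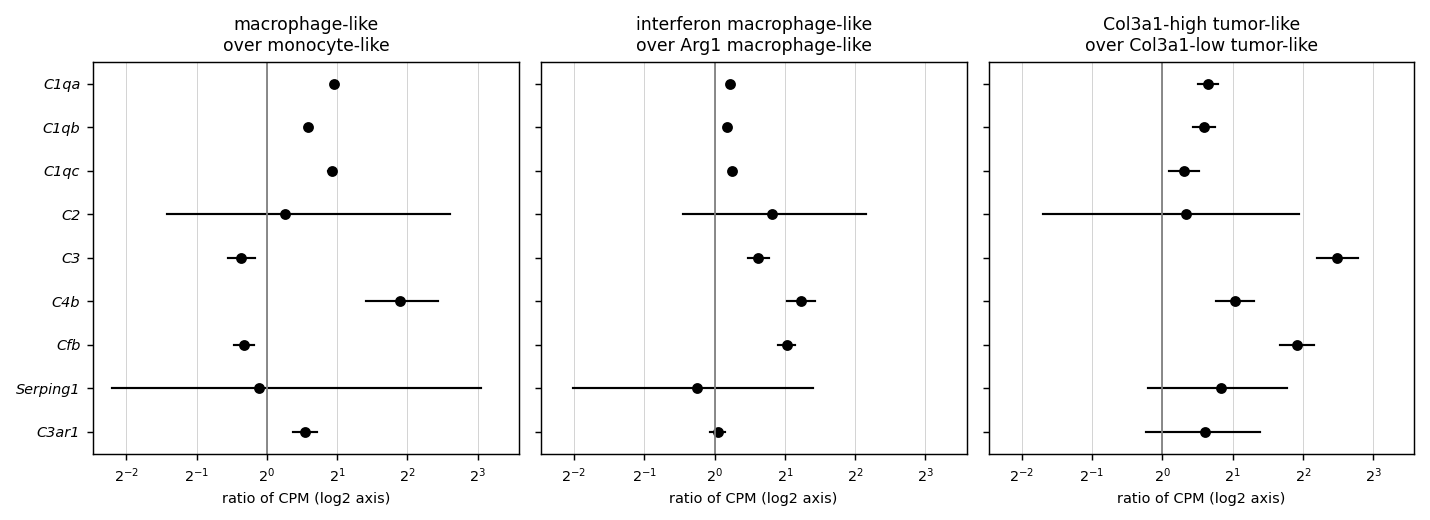
Ratio of the CPM of each gene between 3 pairs of groups, on a log2 axis, with exact conditional binomial 95% intervals as lines and 1 as the grey line. C3 and Cfb stand out between Col3a1-high and Col3a1-low tumor-like cells (5.62 and 3.78), C4b and Cfb between interferon and Arg1 macrophage-like cells (2.34 and 2.03), and C4b between macrophage-like and monocyte-like cells (3.74).

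Cfb, the protease of the alternative C3 convertase and a known target of interferon, differed between macrophage states. It was at 332 CPM (316 to 349, 1589 UMIs) in interferon, 194 CPM (179 to 210) in cycling and 163 CPM (153 to 174, 988 UMIs) in Arg1 macrophage-like cells, with 396 CPM (302 to 509) in the 24 others and 288 CPM (263 to 315) in monocyte-like cells. Interferon exceeded Arg1 macrophage-like cells 2.03-fold (1.88 to 2.20), and the ratio lay above 1 in all 15 alternatives computed, from 1.48 per cell to 5.18 at a higher clustering resolution. At least 1 UMI was found in 68.8% of interferon and 63.6% of Arg1 macrophage-like cells, against 2.37% of T and NK-like cells.

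Across the members, 2 of the 8 with at least 20 UMIs in both states together (C4b and Cfb) were at least 2 times higher in interferon than in Arg1 macrophage-like cells, where 3.45% of the 10655 genes were. None was at least 2 times lower, against 2.95% of genes. C3 was 1.54 times higher (1.39 to 1.70) and C3ar1 did not differ beyond counting error (1.03, 0.959 to 1.10). The median log2 ratio was 0.44 over the 8 members and 0.10 over all genes. Serping1, with 6 and 9 UMIs, was below the minimum of 20. The states were themselves defined by interferon and Arg1 marker genes, and the Arg1 group ranged from 99 to 648 cells over the alternatives.

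Outside the myeloid cells Cfb was highest in fibroblast-like cells (801 CPM, 710 to 901, 280 UMIs), with 270 CPM in pericyte-like and 148 CPM in endothelial-like cells (12 UMIs). Col3a1-high tumor-like cells had 19.99 CPM (17.5 to 22.7), non-cycling Col3a1-low cells 7.22 CPM (6.12 to 8.47), cycling ones 4.33 CPM (184 UMIs) and T and NK-like cells 4.88 CPM (1.33 to 12.5). Per UMI, the Col3a1-high cells thus stood above the T and NK-like level (4.10-fold, 1.58 to 15.2) and the pooled Col3a1-low cells did not (1.08, with an interval that includes 1). Per cell, the deeper Col3a1-low cells held more. Non-cycling and cycling ones had 152 and 184 UMIs in 580 and 712 cells, against 4 UMIs in 169 T and NK-like cells.

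Serping1, the gene of C1 inhibitor, was found mainly in stromal groups. It stood at 1445 CPM (1321 to 1576, 505 UMIs, 26 of 27 cells) in fibroblast-like, 679 CPM (581 to 789, 171 UMIs) in pericyte-like and 320 CPM (209 to 468, 26 UMIs) in endothelial-like cells. In pericyte-like cells 1 cell held 45 of the 171 UMIs, and without it the level was 732 CPM. The 8 pericyte-like cells with the most Serping1 held 71.3% of these UMIs and 68.6% of all UMIs of the group. The part of fibroblast RNA in the pericyte-like level was not tested. Serping1 is among the 10 genes that lead the fibroblast-like group, which was defined without it. All 1469 macrophage-like cells together held 16 UMIs (1.14 CPM), monocyte-like cells 2 UMIs, DC-like cells 2 UMIs and T and NK-like cells 0 UMIs. Tumor-like cells held 52 UMIs (0.689 CPM), with 1.09 CPM (0.581 to 1.87) in Col3a1-high and 0.614 CPM (0.436 to 0.839) in Col3a1-low cells, a ratio of 1.78 whose interval (0.871 to 3.40) includes 1. Fibroblast-like cells exceeded macrophage-like cells 1268-fold (773 to 2235).

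C3ar1, the C3a receptor, kept to the myeloid cells. It was at 302 CPM (287 to 318) in interferon, 293 CPM (280 to 307) in Arg1, 205 CPM (190 to 222) in cycling and 349 CPM (262 to 457) in other macrophage-like cells, and at 190 CPM (170 to 213) in monocyte-like cells. The ratio of macrophage-like to monocyte-like cells was 1.46 (1.30 to 1.64), and cycling macrophage-like and monocyte-like cells did not differ beyond counting error (1.08, 0.941 to 1.24). DC-like and T and NK-like cells had 3 UMIs each, and the tumor-like groups between 0.856 and 1.51 CPM. The 27 fibroblast-like cells had 0 UMIs, which allows up to 8.58 CPM. With at least 500 genes per cell the ratio to monocyte-like cells turned to 0.787. The 24 cells then named monocyte-like held the same number of C3ar1 and of C1q UMIs (53 and 2317) as the other macrophage-like cells of the first grouping.

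Macrophage-like cells were at least 2 times above monocyte-like cells for 1 of the 8 members with enough UMIs, C4b (3.74-fold, 2.67 to 5.39), where 12.9% of 11286 genes were, and 2 times below for 0 members, against 2.13% of genes. Fibroblast-like cells were at least 2 times above macrophage-like cells for 5 of the 9 members (C2, C3, C4b, Cfb and Serping1) and at least 2 times below for the other 4 (C1qa, C1qb, C1qc and C3ar1). Of all 11422 genes, 22.2% were higher and 23.5% lower by this measure. Fibroblast-like cells thus held the opposite side of the list from macrophages, with C3 15.1-fold (13.8 to 16.5) and Cfb 3.48-fold (3.07 to 3.93) higher.

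The members were also set against C1qa within each group. C3ar1 stood at 0.0303 to 0.0498 UMIs per UMI of C1qa in the 4 macrophage-like groups, 0.0484 in monocyte-like, 0.0323 in DC-like, 0.0337 in T and NK-like and 0.0310 to 0.0372 in the tumor-like groups. C1qb (0.653 to 1.16) and C1qc (0.416 to 0.627) covered similar ranges over these groups. The ranges of C3, C4b and Cfb were wider. In Col3a1-high tumor-like cells they stood at 0.383, 0.298 and 0.452 UMIs per UMI of C1qa, against at most 0.0205, 0.0939 and 0.0563 in any macrophage-like group. Monocyte-like cells stood at 0.0406, 0.00548 and 0.0733, and DC-like cells, with 2 to 8 UMIs of each gene, at 0.0753, 0.0215 and 0.0860. The pooled Col3a1-low cells stood at 0.107, 0.228 and 0.188, and T and NK-like cells, with 3 to 5 UMIs of each gene, at 0.0337, 0.0562 and 0.0449. Fibroblast-like cells, with 16 UMIs of C1qa, stood at 40.9, 18.6 and 17.5 and pericyte-like cells at 1.58, 0.812 and 0.8. For the collagens there were 0.00234 UMIs of Col1a2 per UMI of Col3a1 in Col3a1-high tumor-like cells and 0.779 in fibroblast-like cells. Free RNA was not measured, and its part in these values was not tested.

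**Figure D4:**
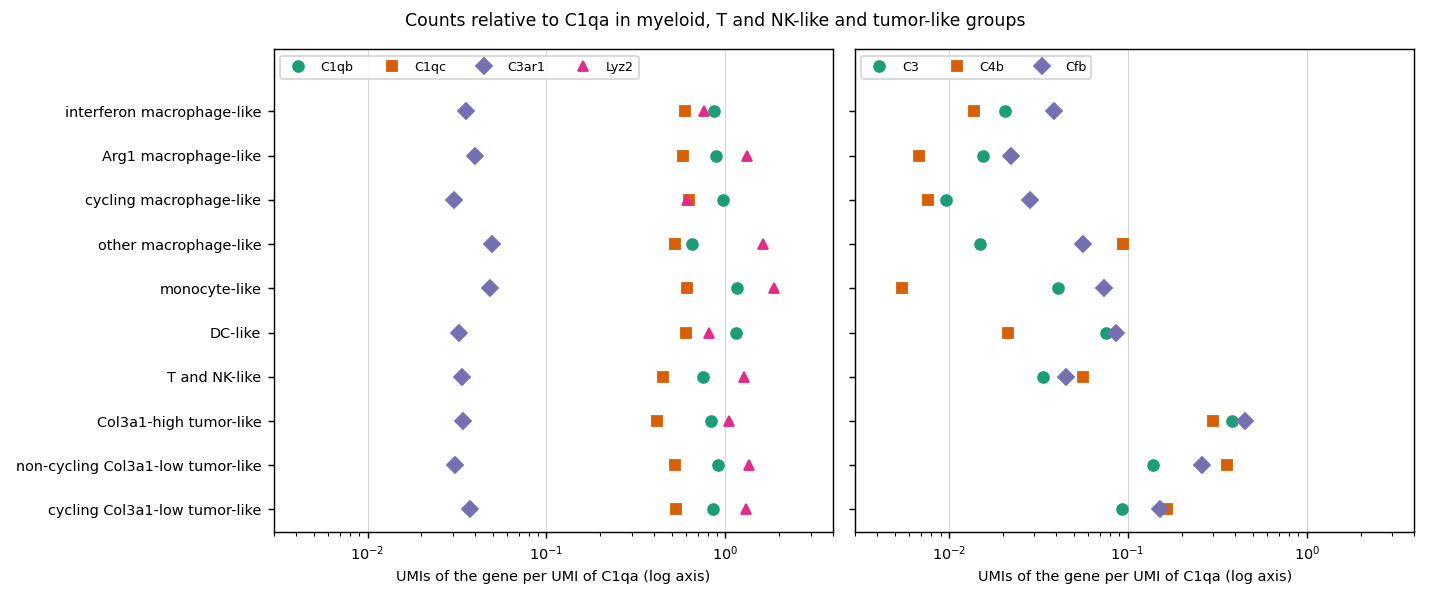
UMIs of other genes per UMI of C1qa (log axis) in the myeloid, T and NK-like and tumor-like groups, with C1qb, C1qc, C3ar1 and Lyz2 on the left and C3, C4b and Cfb on the right. C3ar1 stays between 0.0303 and 0.0498 in all 10 groups, whereas C3, C4b and Cfb lie to the right in tumor-like groups, at 0.383, 0.298 and 0.452 in Col3a1-high cells.

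The rest of the complement list held 45 reported genes, of which 23 had at least 20 UMIs in the kept cells. In the classical pathway the C1 proteases were highest in fibroblast-like cells, with C1ra at 295 CPM and C1s1 at 435 CPM in fibroblast-like cells, against 20.5 and 1.25 CPM in interferon macrophage-like cells. Col3a1-high tumor-like cells had more of both (44.6 and 12.4 CPM) than cycling Col3a1-low cells (15.2 and 1.29 CPM). Cfp, which encodes properdin, the stabilizer of the alternative convertase, was myeloid, at 191, 269 and 276 CPM in interferon, Arg1 and cycling macrophage-like cells and 280 CPM in DC-like cells. The receptors C5ar1 (124 and 200 CPM in interferon and Arg1 macrophage-like cells) and Itgam, a chain of complement receptor 3 (255 and 353 CPM), were also myeloid. Among regulators, Cd55 was at 132 CPM in fibroblast-like and 30.5 CPM in T and NK-like cells. Clu, or clusterin, was at 86.1 CPM in endothelial-like (7 UMIs), 74.4 CPM in fibroblast-like (26 UMIs) and 52.2 CPM in Col3a1-high tumor-like cells. Of these other genes with enough UMIs, 1 of 13 was at least 2 times higher in interferon than in Arg1 macrophage-like cells (3.45% of all genes), and 5 of 16 in macrophage-like than in monocyte-like cells (12.9%). In Col3a1-high against Col3a1-low tumor-like cells 6 of 17 were higher (9.51%) and 2 lower (4.92%). Against macrophage-like cells, 7 of 18 were higher (22.2%) and 9 lower (23.5%) in fibroblast-like cells.

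The 24 other macrophage-like cells held 43 of all 97 UMIs of Fcna, a ficolin of the lectin pathway (284 CPM, 205 to 382), and 14 of 23 UMIs of C6 (92.3 CPM, 50.5 to 155). Cfp was at 646 CPM (525 to 788), above the next group, DC-like cells (280 CPM, 228 to 340). C5ar1 (284 CPM, 205 to 382), Itgam (422 CPM, 325 to 539) and Itgb2 (336 CPM, 250.4 to 442) had intervals that overlapped those of Arg1 macrophage-like cells. Vsig4, a C3b receptor of resident macrophages with too few UMIs for the list, had 12 of its 13 UMIs there. Of the members, C4b set these cells apart from interferon macrophage-like cells, as given above, whereas the ratios of C3ar1 (1.16, 0.863 to 1.52) and Cfb (1.19, 0.905 to 1.54) had intervals that include 1.

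**Figure D5:**
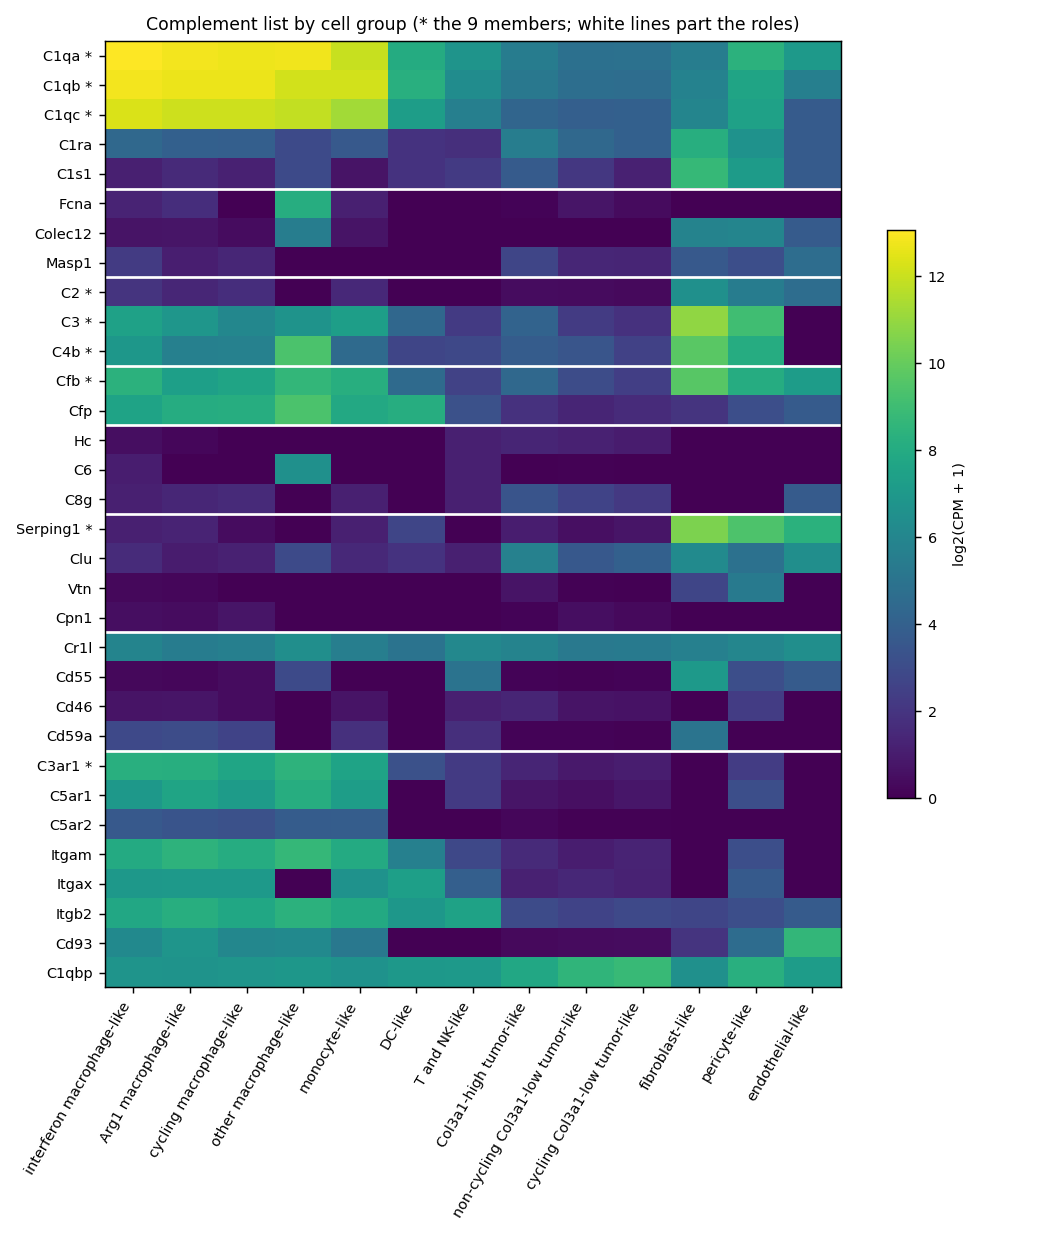
Level of 32 genes of the complement list with at least 20 UMIs, as log2 of CPM plus 1 (color), in the 13 named groups (columns), ordered by role and with the 9 members marked by an asterisk. The C1q genes, Cfp and the receptors C5ar1 and Itgam are bright in myeloid columns, whereas C1ra, C1s1, C3, C4b and Serping1 are brightest in fibroblast-like cells and Fcna and C6 in the other macrophage-like column.

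The genes whose levels ran most like the members over the 13 groups were sought among 10971 genes outside the complement list with at least 200 UMIs, by Pearson's r of log2(CPM + 1). For C1q they were Ms4a7 (0.983), Lyz2 (0.982) and Fcgr3 (0.981), and for C3ar1 Fcrls (0.986), Clec4a3 (0.980) and Pla2g7 (0.976). C2 was closest to Tnxb (0.953), Ccn2 (0.952) and Sfrp2 (0.951), and Serping1 to Ccn2 (0.969), Serpina3n (0.964) and Tnxb (0.957). C3 was closest to Spon1 (0.928), Clmp (0.911) and Slc30a7 (0.907), and C4b to Zdhhc5 (0.942), Clmp (0.927) and Dpp7 (0.918), whereas Cd302 (0.939) and Sash1 (0.921) were among the 3 closest to Cfb. The C1q and C3ar1 partners include known macrophage genes and those of C2 and Serping1 known matrix genes. Ms4a7 and Lyz2 were themselves markers used to name the groups, so their likeness to C1q is not independent of the naming. The groups come from 1 library and differ in depth and size, so these values describe the groups.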

How the data were processed

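The single-cell table holds UMI counts per gene and called cell, which the authors deposited without normalization. They made it with Cell Ranger, version 5.0.1 per the file headers, whereas the methods name another version, on GRCm38/mm10. The series has 1 sample, so no replicate, test or pairing was available. The members and the gene lists were chosen with earlier results of these data known, and so were the filters and clustering settings taken over from earlier work on them.

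Cells with under 200 genes or over 20% mitochondrial UMIs were left out. Doublets were scored against 2 simulated doublets per cell and removed at 0.8% per 1000 cells. After scaling each cell to 10000 and taking logs, 2000 variable genes without complement genes (1000 in a second round), 30 principal components (15) and 20 nearest neighbors gave Leiden clusters at a resolution of 0.5. A cluster took a name when at least 3 markers had at least 5 UMIs and 2 times the level of the other cells. Tumor-like clusters needed Shisal2b and Rhox5 at 5 times the myeloid level. Shallow clusters, with a median under 1 part in 3 of the depth, also needed a marker among the 10 leading genes. The study's own cell names may differ from these rebuilt ones.

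Levels are UMIs per 1000000 UMIs of a group, with exact 95% intervals (Poisson, Clopper-Pearson for shares, conditional binomial for ratios). Counts of 0 are given the limit of 3 counts. Shares were repeated at 1000 UMIs per cell. Genes named are the 9 members, other genes of the complement list with at least 20 UMIs, markers, and the 3 genes most like each member over the groups. One gene of the complement list and one of the most similar genes are not reported here, and the list is counted without the former. Vsig4 and C4a, under that minimum, were named after their values were seen. Correlations over cells used log levels. The pipeline was tested on simulated data. Alternatives were other filters, clustering settings, depth corrections and group definitions. Clustering used leidenalg 0.10.2 with igraph 0.11.9 and scikit-learn 1.9.0 under Python 3.11.15, intervals scipy 1.17.1, tables pandas 2.3.3 with numpy 2.4.6, and plots matplotlib 3.10.9. Promoters came from RefSeq tables of GRCm38.p6, and gene positions from GENCODE M21.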

Additional observations from a re-analysis of the deposited data

Results flagged for a closer look

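The cells left out of the comparisons also held complement UMIs above the level that 3 counts would give, and these values were looked at because no comparison used them. The 667 cells above the mitochondrial limit had 542 CPM of summed C1q, 15.8 CPM of C3, 16.9 CPM of C4b, 18.3 CPM of Cfb, 3.94 CPM of Serping1 and 13.2 CPM of C3ar1. The 172 cells removed as doublets had 2885 CPM of C1q, 1.11 CPM of C2, 32.5 CPM of C3, 14.4 CPM of C4b, 46.8 CPM of Cfb, 1.94 CPM of Serping1 and 40.3 CPM of C3ar1. The 742 kept cells without a name had 1884 CPM of C1q, 32.2 CPM of C3, 29.1 CPM of C4b, 39.5 CPM of Cfb, 4.16 CPM of Serping1 and 18.4 CPM of C3ar1. All 3 sets lay between the tumor-like and the macrophage-like levels of C1q.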

How the results depend on the processing

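Each of the 8 ratios was recomputed under up to 15 alternatives and up to 2 more chosen after seeing the data (fibroblast- and pericyte-like cells pooled, and without the cell with the most UMIs of the gene in each group). Of 113 values, 58 stayed within the counting interval of the reported ratio, 51 moved and 4 turned direction, and 16 could not be had because a group had no cell or 0 and 1 UMIs remained. The cause of the changes was not tested.

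The ratio of macrophage-like to monocyte-like C1q moved to 3.03 at 10% mitochondrial UMIs, 1.25 with at least 500 genes, 2.42 with more variable genes, 1.02 and 2.39 at resolutions of 0.3 and 0.8, 2.93 with 10 neighbors, 2.28 with another seed, 2.42 with complement genes among the variable genes, 1.98 as a mean over cells, 2.63 per cell, 1.97 after thinning and 1.79 without the highest cells. For C1q in interferon over Arg1 macrophage-like cells the settings gave 1.63 (10% mitochondrial), 0.941 (no limit), 1.13 (500 genes), 1.17 (more variable genes), 1.46 (resolution 0.8), 1.22 (20 components), 1.65 (10 neighbors), 1.71 (seed), 1.70 (complement genes), 0.9999 (mean over cells), 0.842 (per cell) and 1.01 (thinned). The Cfb ratio of the same states moved to 3.31, 3.27 and 2.25 under the first 3 filters, 5.18 (resolution 0.8), 2.24 (20 components), 4.06 (10 neighbors), 3.94 (seed), 3.93 (complement genes), 1.81 (mean) and 1.48 (per cell).

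C3ar1 in macrophage-like over monocyte-like cells moved to 2.15 (10% mitochondrial), 0.787 (500 genes), 1.66 (more variable genes), 1.06 and 1.65 (resolutions), 2.04 (10 neighbors), 2.20 (per cell) and 1.72 (thinned). The C3 ratio of Col3a1-high to Col3a1-low tumor-like cells moved to 4.47 (500 genes), 7.71 (mean), 3.56 (per cell), 16.1 (thinned, 19 and 4 UMIs) and 4.43 (without the highest cells), and the C2 ratio of macrophage-like to tumor-like cells to 1.68 (per cell) and 3.45 (thinned, 3 and 1 UMIs). C4b in fibroblast-like over Col3a1-high cells moved to 52.3 (doublets kept), 47.3 and 51.0 (resolutions), 91.6 (10 neighbors), 26.9 (per cell) and 46.3 (pooled stroma). It had no value at 10% mitochondrial UMIs, without a mitochondrial limit, with 500 genes and with more variable genes, where no cell was named fibroblast-like. With 20 and 10 principal components no cell was named Col3a1-high, so the C4b, C3 and Serping1 ratios had no value. No cell was named monocyte-like without a mitochondrial limit, with doublets kept or with these components. At a resolution of 0.3 no cell was named interferon macrophage-like. For Serping1 none of 14 values moved (1.08 to 2.06).

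No paired analysis was possible because there is 1 sample. Groups of 16 to 40 cells, and genes with under 20 UMIs in a group, such as C2 in each myeloid group, limit what the depth can show.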
